A study of Homo sapiens with 16 samples.

Results

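T47D-MTVL cells that carry an inducible hairpin against the linker histone H1.4 were compared after growth with doxycycline (Dox) and without it. The sources used here name the hairpin sh120. The comparison takes the 2 arrays titled sh120_Dox against the 2 titled sh120, which are 4 of the 16 arrays of the series, chosen by their titles. T47D is a human breast cancer line of luminal, hormone receptor positive type, and the MTVL derivative holds an integrated luciferase reporter under the MMTV promoter. All hairpin lines also carry a red fluorescent protein and a Tet regulator fused to the KRAB repressor domain, and Dox switches on both the fluorescent protein and the hairpin. The line had been sorted for red and green fluorescence after a pulse of Dox and expanded without it. The sh120_Dox cells then received 2.5 µg/mL of Dox for 6 days; they were split at day 3 and kept without serum from day 4 to arrest growth. The sh120 cells were the same line without Dox, and the labels do not state whether they too were deprived of serum. Since Dox and the hairpin come together, they cannot be told apart within the line. For this reason the effect of Dox was also set beside that in the sh225 line, whose hairpin targets several H1 variants (sh225_Dox and sh225, 2 arrays each), and in the Ctrl line, whose hairpin is random (Ctrl_Dox and Ctrl, 2 arrays each). The labels give 2 replicates per group without saying that they were separate cultures, so the p-values rest on the spread between arrays, part or all of which may be technical.

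Linker histones bind the nucleosome where DNA enters and leaves it and help to fold nucleosome arrays. Somatic human cells express several H1 variants from separate genes, and H1.4, the product of H1-4, is among the widely expressed ones. Loss of a single variant can be met by the others, which is why variants are depleted both alone and together.

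The H1 probes were read first, because the targeted transcript checks the labels. The H1-4 probe gave raw intensities of 52.8 and 54.4 on the sh120_Dox arrays and of 54.2 and 47.2 on the sh120 arrays. All 4 values are at the level of empty probes, with detection p-values of 0.898 and 0.854 on the sh120_Dox arrays and of 0.860 and 0.965 on the sh120 arrays. The same probe read 356.2 and 347.4 in cells that overexpress H1.4 (group WT), so it detects an H1-4 transcript when that is abundant. Depletion of the native H1-4 transcript therefore could not be checked on these arrays. H1-2, which encodes the variant H1.2, had log2 levels of 9.49 and 9.20 with Dox and of 8.94 and 9.15 without. The groups did not overlap, but the difference of 0.30 ± 0.15 (log2 fold change ± SE, n = 2 arrays per group here and below) did not pass the test (adjusted p = 0.169). H1-10, which encodes H1x, had 8.48 and 8.72 with Dox against 9.11 and 8.99 without. It fell by 0.45 ± 0.14 (adjusted p = 0.0357), a call lost in 3 of the 4 fits that leave out an array, with a highest adjusted p of 0.249 without sh120_Dox replicate 1. Probes for H1-1, H1-3, H1-5, H1-6, H1-7, H1-8 and H1-9P were not detected widely enough to be tested.

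The 4 arrays were of even quality. Between 9722 and 10201 probes were detected on each, and replicates correlated across genes at r = 0.991 for sh120_Dox and r = 0.993 for sh120. The number of arrays limits the precision, with a median SE of a log2 fold change of 0.152. All 10 luminal epithelial markers fixed for the check were detected on at least 1 of the 4 arrays and 9 of them on all 4. The exception was EPCAM, detected on both arrays without Dox and on neither with it. None of the basal, leukocyte or endothelial markers of this short panel with a probe was detected, and of its fibroblast markers COL1A1 alone was. The longer marker lists used further below did hold detected genes. On 2 or more of the 4 arrays these were 4 of 14 basal and myoepithelial, 5 of 18 fibroblast, 3 of 11 endothelial and 1 of 16 leukocyte genes. Among smooth muscle markers MYH11, ACTA2 and TAGLN were detected, and CNN1 and DES were not.

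With Dox, 1593 of 9654 tested genes and unnamed probes passed the test at an adjusted p under 0.05 (limma, Benjamini-Hochberg), which is 16.5%. Of these, 779 were higher (8.07% of all tested) and 814 were lower (8.43%). Most changes were modest: the median size among called genes was 0.57 on the log2 scale, and 56 genes rose and 45 fell at least 2-fold. The median change over all tested genes was 0.0079, a value that quantile normalisation holds near 0. Both arrays with Dox stood above both arrays without it for 30.4% of tested genes and below them for 29.0%. The fit called 726 genes when sh120_Dox replicate 1 was left out and 826 when its replicate 2 was. Leaving out sh120 replicate 1 gave 654 and leaving out its replicate 2 gave 668. A set of 342 genes, 166 higher and 176 lower, was called in all 4 of these fits.

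Part of the response was also seen with the random hairpin. In the Ctrl line 288 genes were called (2.98%), 140 higher (1.45%) and 148 lower (1.53%). Genes called higher in both lines numbered 81, which is 10.4% of the sh120 rises and 57.9% of the Ctrl rises. Genes called lower in both numbered 97, which is 11.9% of the sh120 falls and 65.5% of the Ctrl falls. A call in 1 line alone does not show that the lines differ. The difference from Ctrl itself was called for 37 of the 1593 genes called in sh120. Of the 101 called changes of at least 2-fold in sh120, 39 were called the same way in Ctrl, and for 16 the difference was called. A difference that was not called is not thereby shown to be absent. In the sh225 line 3432 genes were called (35.6%), 1650 higher (17.1%) and 1782 lower (18.5%). Of these, 321 were higher in sh120 too, 41.2% of its rises and 19.5% of the sh225 rises, and 466 were lower in sh120 too, 57.2% of its falls and 26.2% of the sh225 falls. A further 133 genes were called in opposite directions in the sh120 and sh225 lines, 91 of them higher in sh120 and 42 lower.

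Several of the largest rises with Dox were in genes that were undetected without it. GCGR, the glucagon receptor, had log2 levels of 7.78 and 7.46 with Dox and was not detected on either array without it, which makes it at least 3.17-fold higher (adjusted p = 8.61e-09). FGL1, a secreted fibrinogen-like protein, had 7.12 and 7.27 with Dox, was likewise undetected without it, and was at least 2.37-fold higher (adjusted p = 4.34e-08). Neither gene was detected on any array of the sh225 or Ctrl lines, with Dox or without. Within the hairpin lines both thus met the filter on detection only through the sh120_Dox arrays, where they are high. Their p-values are therefore not separate support for a rise. BRINP1, a protein of the nervous system, was at least 3.06-fold higher, GALR2, a receptor for the neuropeptide galanin, at least 2.39-fold, FAM149A at least 1.56-fold and L3MBTL3, a chromatin protein that reads methylated lysines, at least 1.50-fold. For all 4 of these the sh120 arrays without Dox gave no detected signal, so the folds are lower bounds. GALR2 and FAM149A too were detected, within the hairpin lines, only on the sh120_Dox arrays. BRINP1 and L3MBTL3 were called higher in the Ctrl line as well, at least 1.22-fold and 1.02-fold, again from undetected levels without Dox. The difference of L3MBTL3 from Ctrl was not called.

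MYH11, the heavy chain of smooth muscle myosin, had 8.31 and 8.41 with Dox against 5.72 and 5.86 without, a rise of 2.57 ± 0.19 (adjusted p = 4.88e-08). In the Ctrl line it was undetected without Dox and at least 1.71-fold higher with it. In the sh225 line it was undetected with Dox and detected on 1 of the 2 arrays without, so no fold is given there. The summed linear level of the smooth muscle markers that could be tested was 1770 to 1820 on the sh120_Dox arrays and 1090 to 1210 on the sh120 arrays. MYH11 is itself part of this sum, so the sum is not separate from its rise. CNN1 and DES stayed undetected. Of 9 smooth muscle genes tested, 2 rose and none fell (8.07% and 8.43% of all genes). The other was ACTA2, smooth muscle actin, with 10.14 and 10.04 with Dox against 9.43 and 9.65 without (0.55 ± 0.12, adjusted p = 0.00397, and 0.0676 without sh120 replicate 1). ACTA2 was also called higher in the Ctrl line, by 0.62, and in the sh225 line, by 0.49. The part of other cells in these levels was not tested.

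VTCN1, the B7 family ligand B7-H4 that restrains T cells, had 8.41 and 8.32 with Dox against 6.15 and 6.21 without, a rise of 2.19 ± 0.17 (adjusted p = 7.11e-08). OLR1, a scavenger receptor for oxidised lipoprotein, rose by 1.79 ± 0.16, PTGER3, a receptor for prostaglandin E2, by 1.46 ± 0.15, and ANXA1, a phospholipid-binding protein of the annexin family, by 1.32 ± 0.18. These 4 genes rose in the Ctrl line too, by 1.93, 1.19, 1.05 and 0.94 in the same order. Of 9 B7 and immune checkpoint ligands tested, VTCN1 alone was called. PSG9 and PSG6, pregnancy-specific glycoproteins of a family whose copies are close in sequence and can share a probe's signal, were at least 1.77-fold and 1.38-fold higher with Dox and undetected without it. In the Ctrl line they were likewise undetected without Dox and at least 1.98-fold and 1.52-fold higher with it.

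**Figure D1:**
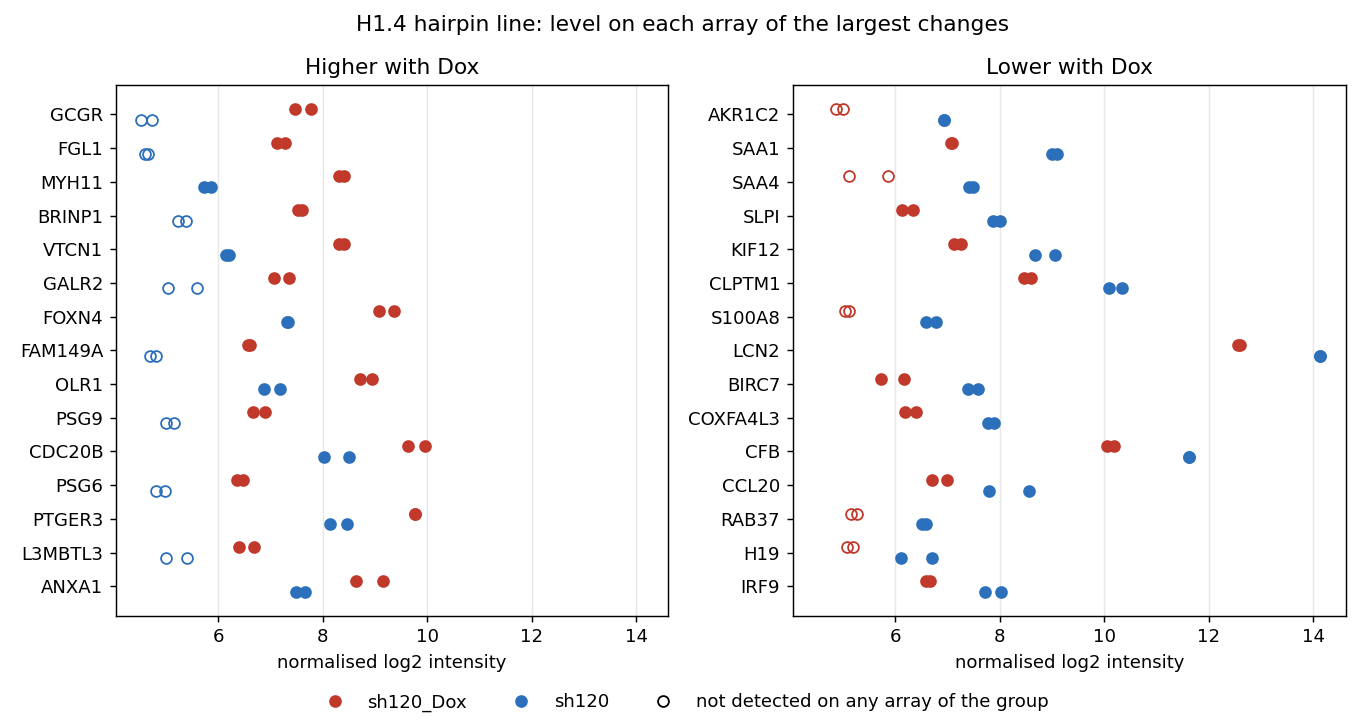
Normalised log2 intensity (x axis) of the 15 largest rises (left) and the 15 largest falls (right) on each sh120_Dox array (red) and each sh120 array (blue), with open circles where a gene was not detected on any array of the group. The 30 genes were chosen among those whose groups do not overlap. LCN2 is the brightest, near 12.6 with Dox and near 14.1 without.

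Genes of the multiciliated cell program rose together. Multiciliated cells, which line the airway and the oviduct, build many motile cilia under transcription factors such as FOXJ1, FOXN4 and the RFX family; the list holds such regulators, centriole amplification genes and axoneme parts. Of 48 listed genes 21 could be tested, 11 of these were higher with Dox (8.07% of all genes) and none was lower, with a median log2 change of 0.58 against 0.0079 over all genes. In the Ctrl line 1 of the 21, FOXN4, was higher and none lower, with a median of 0.02. In the sh225 line none was higher and 15 were lower (18.5% of all genes), with a median of -1.47, or -1.14 with the 9 genes that had 1 group undetected set at their bound. The count was 11 or 10 in each fit that left out an array. It was 4 when only probes detected on all 16 arrays were tested, a filter that leaves out genes undetected in another line.

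Among the regulators, FOXN4 had 9.08 and 9.35 with Dox against 7.34 and 7.32 without, a rise of 1.89 ± 0.15 (adjusted p = 1.89e-07). CDC20B, whose gene hosts the miR-449 family that promotes multiciliogenesis, had 9.63 and 9.97 with Dox against 8.51 and 8.03 without (1.53 ± 0.18, adjusted p = 1.67e-05). CCNO, a cyclin needed for mass production of centrioles and a neighbour of CDC20B on chromosome 5, had 11.00 and 10.76 with Dox against 10.15 and 10.13 without (0.74 ± 0.17, adjusted p = 0.00586, and 0.0683 without sh120_Dox replicate 1). In each of these genes both arrays with Dox were above both arrays without. FOXJ1 itself had 7.35 and 6.86 with Dox against 6.62 and 6.54 without, and its difference of 0.53 ± 0.25 did not pass the test (adjusted p = 0.155).

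Axoneme genes followed the same pattern. TEKT1, a tektin of the ciliary doublet microtubules, had 8.47 and 8.00 with Dox against 6.92 and 6.96 without (1.30 ± 0.22, adjusted p = 0.000770). RSPH4A, a radial spoke head protein mutated in primary ciliary dyskinesia, had 7.10 and 7.64 with Dox against 6.18 and 6.10 without (1.23 ± 0.22, adjusted p = 0.00106). ROPN1L, another radial spoke protein, rose by 1.17 ± 0.18, HOATZ, a protein needed for motile cilia in mice, by 1.08 ± 0.16 and DNAI1, an intermediate chain of outer arm dynein, by 1.01 ± 0.19. DNAAF1, a dynein assembly factor, rose by 0.69 ± 0.14 and DNALI1, an inner arm dynein chain, by 0.58 ± 0.11. CAPSL rose by 1.14 ± 0.14, but the identity of its probe is uncertain: the authors' series matrix has another signal under the same identifier, with a change of 0.02. CCNO, DNAI1, DNAAF1, DNALI1 and FOXJ1 were chosen after their values were seen.

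The change in sh120 differed from that in sh225 for 15 of the 21 genes (adjusted p under 0.05 for the difference), all higher in sh120, where 8.37% of all tested genes were called higher and 5.58% lower. HOATZ changed by 1.08 in sh120 and by -3.14 in sh225, a difference of 4.22 ± 0.22 (adjusted p = 1.73e-10). In the same lines CDC20B changed by 1.53 and -2.43 (difference 3.95 ± 0.25) and ROPN1L by 1.17 and -2.53 (3.69 ± 0.26). FOXN4 rose by 1.89 in sh120 and was undetected with Dox in sh225, at least 3.83-fold lower there, so its log2 changes differed by at least 3.82. From the Ctrl line the sh120 change differed for 5 of the 21: FOXN4, CDC20B, ROPN1L, HOATZ and CAPSL. Of the 8 fits that left out an array of either line, 5 called this difference for FOXN4, 4 for CDC20B, 3 for HOATZ, 1 for CAPSL and none for ROPN1L. DNALI1 did not fall in sh225 as the other named genes did, with a change of 0.04 there, and its difference from sh225 of 0.55 ± 0.15 passed the test (adjusted p = 0.0187).

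**Figure D2:**
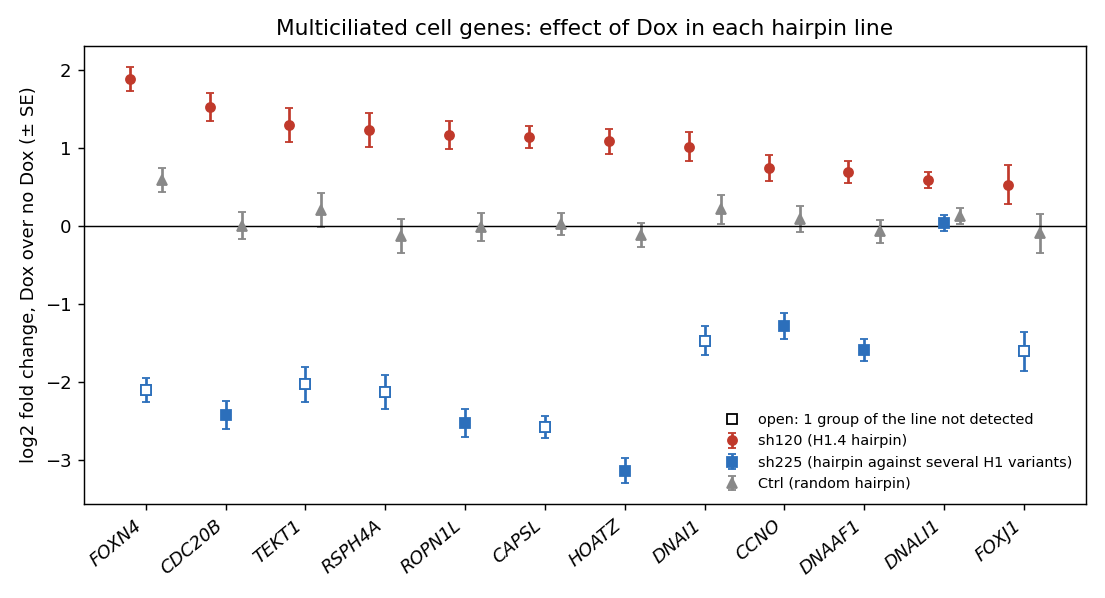
Log2 fold change with Dox over no Dox, with its standard error (y axis), of 12 multiciliated cell genes in the sh120 line (red), the sh225 line (blue) and the Ctrl line (grey). Open symbols mark a line in which 1 of the groups was not detected, where the point gives no exact size. The genes shown are the 11 called higher in sh120 and FOXJ1, so their sh120 points lie above 0 largely by this choice, from 0.53 for FOXJ1 to 1.89 for FOXN4. Of all 21 tested genes of the list, 3 were below 0 in sh120. In sh225 all points shown but DNALI1 lie below 0.

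The promoters of TEKT1 and RSPH4A are shown because RFX factors bind DNA upstream of many ciliary genes, and both hold a copy of the RFX half-site just before the start of transcription. The half-site GTTGCC, on either strand, was searched in RefSeq promoters (GRCh38.p14, 250 bases before to 50 bases after each start), a motif chosen after the values were seen. Of the 11 risen genes 9 had a promoter in the table, and 5 of these (55.6%) held the half-site: CCNO, DNAI1, RSPH4A, TEKT1 and CAPSL. It stood in 12.2% of all 35116 promoters. The windows below run from 140 bases before to 10 bases after the start, chr17:6831720-6831869 on the minus strand for TEKT1 and chr6:116616339-116616488 on the plus strand for RSPH4A, and capitals mark the half-site, in both on the opposite strand and read as GGCAAC. A match is a description of the letters and not evidence of binding.
TEKT1: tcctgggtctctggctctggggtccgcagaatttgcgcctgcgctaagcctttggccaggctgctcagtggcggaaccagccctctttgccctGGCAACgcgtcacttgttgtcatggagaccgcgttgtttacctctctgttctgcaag
RSPH4A: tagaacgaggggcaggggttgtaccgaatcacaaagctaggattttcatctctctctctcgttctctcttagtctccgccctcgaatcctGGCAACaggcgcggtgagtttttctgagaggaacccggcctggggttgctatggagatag

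Acute phase and epithelial defence genes fell. These are secreted proteins that epithelia and liver make in inflammation. Of 20 tested, 10 were lower (8.43% of all genes) and none was higher, with a median log2 change of -0.54, or -0.40 with undetected genes at their bound, and each of the 10 was also called in all 4 fits that left out an array. In the Ctrl line 9 were lower (1.53% of all genes) and 1 was higher, with a median of -0.64, or -0.27 with undetected genes at their bound. The difference between the sh120 and Ctrl effects passed the limma test for 0 of the 20 genes, and 4 had an unadjusted p under 0.05. In the sh225 line 4 were higher and 4 lower, with a median of 0.06, and for 10 genes the change in sh120 was lower than that in sh225.

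LCN2, an iron-scavenging lipocalin, was among the brightest genes on the arrays, with 12.60 and 12.55 with Dox against 14.13 and 14.12 without, a fall of 1.56 ± 0.08 (adjusted p = 2.64e-10). SAA1, the serum amyloid A protein, had 7.09 and 7.07 with Dox against 9.09 and 9.00 without and fell by 1.96 ± 0.12 (adjusted p = 8.61e-09); its probe may also read the near-identical SAA2. SAA4 was not detected on either array with Dox and was at least 2.69-fold lower. SLPI, an inhibitor of leukocyte proteases, fell by 1.69 ± 0.16, and CFB, complement factor B, by 1.50 ± 0.12. The log2 changes in the Ctrl line were -1.31 for LCN2, -2.05 for SAA1, -1.50 for SLPI and -1.52 for CFB, so the random hairpin line showed falls of these genes as well. With the sh225 hairpin SLPI rose by 0.93, and neither LCN2 (0.17) nor SAA1 (-0.05) was called.

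The calgranulins S100A8 and S100A9 fell too. S100A8, a calprotectin subunit of neutrophils and inflamed epithelia, was undetected with Dox and at least 1.59-fold lower, and its partner S100A9 had 8.37 and 8.45 with Dox against 9.45 and 9.44 without (fell by 1.03 ± 0.12, adjusted p = 1.89e-05). S100P fell by 0.90 ± 0.10 and S100A13 by 0.61 ± 0.12, whereas S100A4, a calcium-binding protein linked to cell motility, rose by 1.09 ± 0.12. In all, 3 of 12 S100 genes rose and 4 fell (8.07% and 8.43% of all genes), so the family did not move one way. In the Ctrl line the changes were -0.98 for S100A9, -1.36 for S100P and 1.02 for S100A4. S100A8 was undetected with Dox there too, at least 1.15-fold lower, and S100A13 was not called. The S100A13 call depends on the probe, since other probes of that gene gave changes between -0.09 and 0.32. Of 21 NF-kappaB targets and cytokines tested, 5 fell (8.43% of all genes) and none rose, with a median of -0.21, against 7 falls and no rise in Ctrl and 12 rises and no fall in sh225. CCL20, a chemokine for lymphocytes and dendritic cells, had 6.70 and 6.99 with Dox against 8.56 and 7.79 without (fell by 1.33 ± 0.23, adjusted p = 0.000916). TNFAIP2 fell by 0.87 ± 0.16 and SOD2, the mitochondrial superoxide dismutase, by 0.54 ± 0.11. CXCL8, the chemokine interleukin 8, is counted among the 5 but was below detection on all 4 arrays, so no fold is given for it.

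Other large falls came from varied genes. AKR1C2, an aldo-keto reductase that inactivates dihydrotestosterone and is nearly identical to AKR1C1, was not detected on either array with Dox and had 6.93 on both arrays without, which makes it at least 1.88-fold lower (adjusted p = 1.94e-08). CLPTM1, a membrane protein, had 8.47 and 8.59 with Dox against 10.34 and 10.09 without (fell by 1.68 ± 0.15). KIF12, a kinesin, fell by 1.68 ± 0.28. BIRC7, the apoptosis inhibitor livin, fell by 1.54 ± 0.22 and was detected on 1 of the 2 arrays with Dox. RAB37, a GTPase of secretory granules, and H19, an imprinted long non-coding RNA, were undetected with Dox and at least 1.44-fold and 1.31-fold lower. In the Ctrl line AKR1C2 and RAB37 were undetected with Dox too, at least 3.42-fold and 1.64-fold lower, and CLPTM1 fell by 0.98. KIF12, BIRC7 and H19 were not called there. In sh225 KIF12 fell by 2.66, and BIRC7 and H19 were undetected with Dox and at least 2.76-fold and 1.47-fold lower. The probe named COXFA4L3 fell by 1.53 ± 0.16, and by 1.38 in Ctrl, but its identity is uncertain, since the authors' series matrix gives -0.03 for sh120 under that identifier.

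The promoters of CCL20 and LCN2 are shown because they alone carried the NF-kappaB consensus among the fallen genes of the acute phase and NF-kappaB lists. Of 15 such genes 12 had a RefSeq promoter, and 2 of the 12 (16.7%) held the consensus on either strand, against 5.91% of all promoters. The CCL20 window is chr2:227813702-227813851 on the plus strand, with the match beginning 79 bases before the start. The LCN2 window is chr9:128149253-128149402 on the plus strand, with the match beginning 175 bases before the start. Capitals mark the consensus.
CCL20: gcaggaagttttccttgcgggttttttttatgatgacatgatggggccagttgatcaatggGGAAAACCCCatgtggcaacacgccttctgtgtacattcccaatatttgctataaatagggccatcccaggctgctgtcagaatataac
LCN2: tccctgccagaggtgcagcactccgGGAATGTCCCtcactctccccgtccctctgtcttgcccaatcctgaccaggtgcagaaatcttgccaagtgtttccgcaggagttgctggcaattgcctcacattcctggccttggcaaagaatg

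Interferon-stimulated genes, many of them antiviral, were mostly not called in sh120. Of 55 tested, 10 were lower and 2 higher, against 8.43% and 8.07% of all genes, with a median of -0.16, and 15 were undetected in both groups. The sh225 line had 48 higher (17.1% of all genes) and 3 lower, and the Ctrl line had 6 lower (1.53%) and none higher. IRF9, a transcription factor of the interferon response, had 6.58 and 6.66 with Dox against 7.72 and 8.03 without (fell by 1.25 ± 0.15, adjusted p = 1.89e-05). MX1, an antiviral GTPase, had 9.38 and 9.29 with Dox against 10.00 and 9.90 without (fell by 0.62 ± 0.10, adjusted p = 0.000441). IFI27 and IFITM3, interferon-induced membrane proteins, were undetected with Dox and at least 1.11-fold and 1.25-fold lower. IFIT1, which binds viral RNA, fell by 0.59 ± 0.16 (adjusted p = 0.0179, and 0.204 without sh120 replicate 1).

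The named genes moved oppositely in the sh225 line, and the difference itself passed the test. IFI27, at least 1.11-fold lower in sh120, rose by 4.80 in sh225, so that its difference, sh120 minus sh225, was -4.96 or lower (adjusted p = 2.81e-12). IFIT1 differed by -4.96 ± 0.23, MX1 by -3.55 ± 0.14 and IRF9 by -2.94, and the difference of IFITM3 was -2.18 or lower. For 45 of the 55 genes the change in sh120 was lower than in sh225, against 5.58% of all tested genes, and for 1 it was higher. The difference between sh120 and Ctrl passed the limma test for 0 of the 55, and 7 had an unadjusted p under 0.05. Antigen presentation genes gave 1 rise and 2 falls of 17 in sh120, none of them called in all 4 fits without an array, and 13 rises and 1 fall in sh225.

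**Figure D3:**
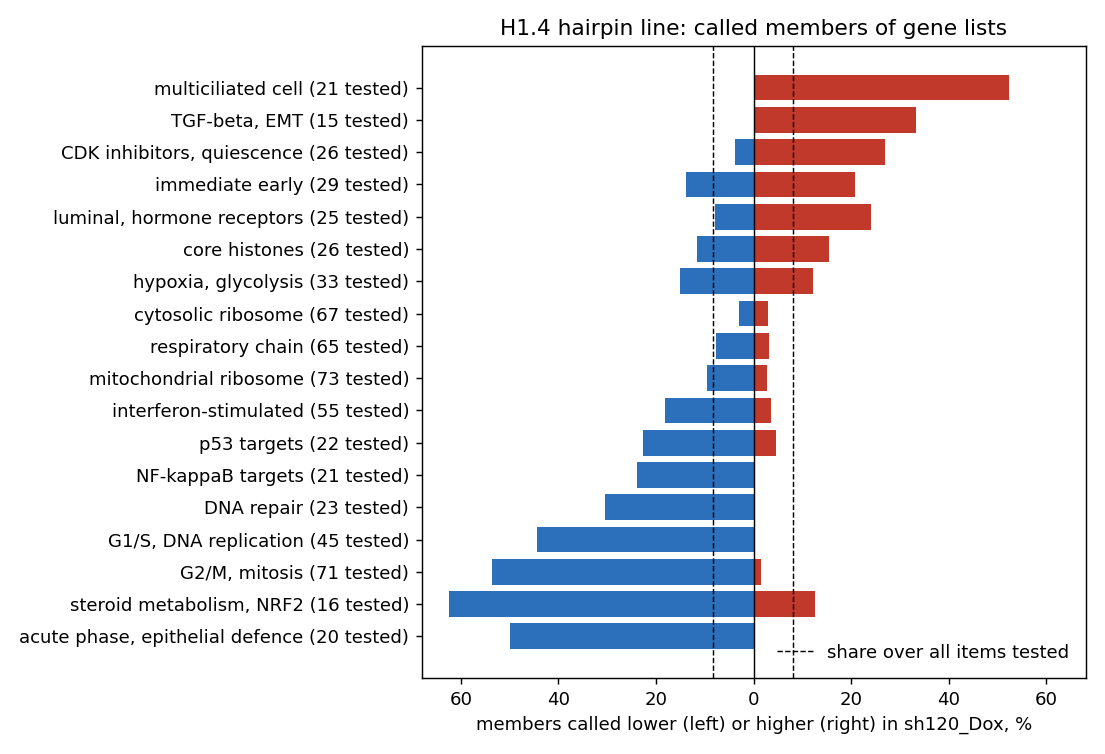
Share of the tested members of 18 gene lists called higher (red, to the right) or lower (blue, to the left) in sh120_Dox against sh120, in percent, with the number tested beside each name and dashed lines at the shares over all items tested, 8.07% higher and 8.43% lower. Multiciliated cell genes (11 of 21) stand at the top and acute phase genes (10 of 20) at the bottom, in an order that does not rank the shares. The share of falls was larger for steroid-metabolising and NRF2 target genes (10 of 16) and for G2 and M genes (38 of 71) than for acute phase genes.

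Cell-cycle genes were lower with Dox. In bulk RNA, fewer dividing cells and less RNA per dividing cell cannot be told apart. Of 71 genes of the G2 and M phases tested, 38 were lower and 1 was higher, against 8.43% and 8.07% of all genes, with a median log2 change of -0.415. Of 45 genes of the G1 to S transition and DNA replication, 20 were lower and none higher, with a median of -0.39. In the Ctrl line 0 genes of either list passed the limma test, 6 of the G2 and M list and 4 of the other had an unadjusted p under 0.05, and the medians were -0.09 and -0.05. In the sh225 line 69 and 40 were lower (18.5% of all genes) and none higher, with medians of -1.49 and -1.08. The falls were small, and their count depends on single arrays. For the G2 and M list it was 21 when sh120_Dox replicate 1 was left out and 27 when its replicate 2 was, and leaving out sh120 replicate 1 gave 15 and its replicate 2 gave 22. For the G1 and S list the same fits gave 11, 16, 13 and 9.

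TACC3, which stabilises the mitotic spindle, had 7.35 and 7.25 with Dox against 8.46 and 8.51 without (fell by 1.19 ± 0.14, adjusted p = 1.89e-05). UBE2C, the ubiquitin-conjugating enzyme of the anaphase-promoting complex, had 10.30 and 10.28 with Dox against 11.21 and 11.17 without (fell by 0.90 ± 0.10, adjusted p = 1.66e-05), and its other probes gave -0.83 and -0.56. FOXM1, a transcription factor that drives mitotic genes, fell by 0.98 ± 0.18, AURKB, a kinase of the chromosomal passenger complex, by 0.98 ± 0.16, and CDC25B, a phosphatase that activates cyclin-dependent kinases, by 0.91 ± 0.13. CDCA3, a mitotic entry factor, was undetected with Dox and at least 1.50-fold lower. PLK4, the kinase that starts centriole duplication, was the 1 gene of the list that rose, with 8.74 and 8.87 with Dox against 8.32 and 8.06 without (0.62 ± 0.14, adjusted p = 0.00550, and 0.0814 without sh120 replicate 2). Among replication genes, GINS4 of the replicative helicase fell by 0.78 ± 0.14 and LIG1, which joins Okazaki fragments, by 0.75 ± 0.15. Of 23 DNA repair genes 7 were lower and none higher (8.43% and 8.07% of all genes). RAD51C, a recombination factor, fell by 0.47 ± 0.10, and of the 7 it alone was called in all 4 fits without an array.

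The Dox effect was less negative in sh120 than in sh225 for 54 of the 71 G2 and M genes and for 25 of the 45 G1 and S genes, by the test of the difference. From Ctrl it differed for 3 G2 and M genes, all lower in sh120: TACC3 by -0.96 ± 0.20, TROAP, a spindle-associated protein, by -0.99 ± 0.18, and UBE2C by -0.78 ± 0.15. The differences of TACC3 and UBE2C were called in none of the 8 fits that left out an array of either line, and that of TROAP in 2 of them, with a highest adjusted p of 0.136, 0.108 and 0.122 in the order TACC3, UBE2C, TROAP.

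**Figure D4:**
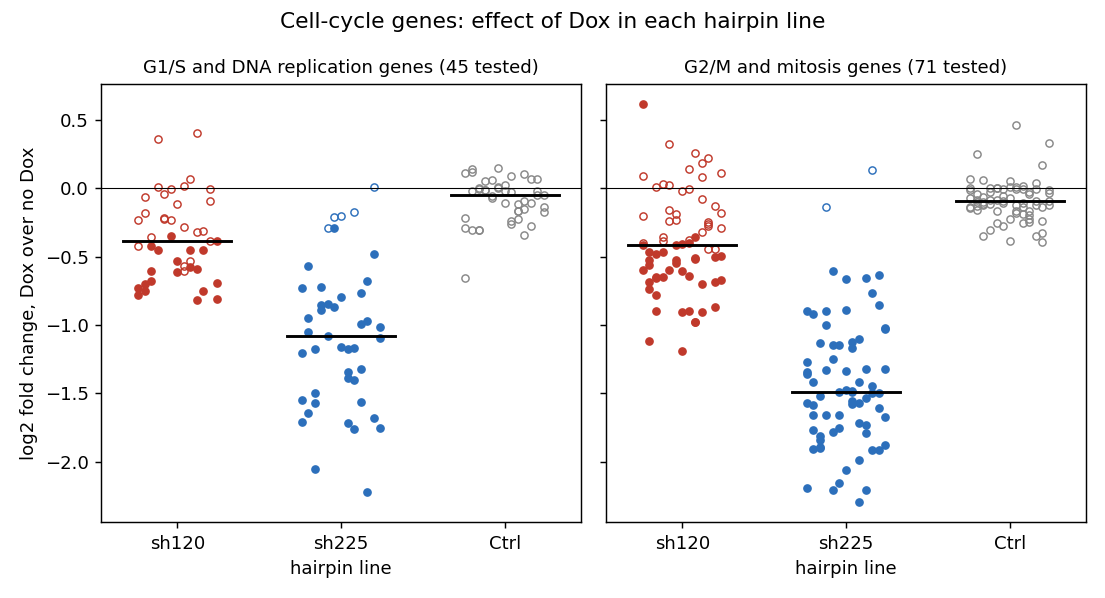
Log2 fold change with Dox over no Dox (y axis) of each tested gene of the G1 to S list (left) and the G2 and M list (right) in the sh120, sh225 and Ctrl lines, with filled points for called genes and black bars at the medians. The sh120 medians, -0.39 and -0.415, lie between those of sh225 and those of Ctrl.

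The promoters of CDCA3 and CDCA8 show the elements that mark many late cell-cycle genes, the cell-cycle homology region (CHR, TTTGAA or TTCGAA) and the CCAAT box. Of the 38 fallen G2 and M genes 29 had a RefSeq promoter. The CHR stood in 20 of the 29 (69.0%), on either strand, against 16.4% of all promoters, and the CCAAT box in 21 (72.4%) against 34.6%. The CDCA3 window is chr12:6851277-6851426 on the minus strand and the CDCA8 window chr1:37692376-37692525 on the plus strand, both from 140 bases before to 10 bases after the start. Capitals mark both elements, with the CCAAT box read as ATTGG where it lies on the opposite strand, and in CDCA8 the CHR overlaps a CCAAT box by a base.
CDCA3: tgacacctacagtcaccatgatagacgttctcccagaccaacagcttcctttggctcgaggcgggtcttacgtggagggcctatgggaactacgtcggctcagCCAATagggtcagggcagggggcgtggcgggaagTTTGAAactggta
CDCA8: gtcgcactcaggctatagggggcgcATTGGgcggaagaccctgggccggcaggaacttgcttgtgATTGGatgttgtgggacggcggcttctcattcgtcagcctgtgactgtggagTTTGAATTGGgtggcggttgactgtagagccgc

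Among CDK inhibitors and quiescence genes 7 of 26 rose (8.07% of all genes) and 1 fell. CDKN2B, the inhibitor p15 that TGF-beta induces, had 7.75 and 8.12 with Dox against 6.95 and 6.98 without (0.97 ± 0.15, adjusted p = 0.000479). MXD4, a repressor that opposes MYC, had 11.49 and 11.26 with Dox against 10.66 and 10.76 without (0.67 ± 0.11). CDKN2B rose in the Ctrl line by 0.84 and in sh225 by 1.17, and MXD4 by 0.48 and 0.39 in the same lines. Without sh120_Dox replicate 2, or without either sh120 array, the number of rises in the list was 3, and 2 of its genes were called in all 4 fits without an array. The p53 target list gave 1 rise and 5 falls of 22 (8.07% and 8.43% of all genes), and its name does not describe a common direction. ZMAT3, an RNA-binding p53 target, fell by 0.79 ± 0.14 and GDF15, a stress cytokine, by 0.56 ± 0.12. TP53I3, an oxidoreductase, fell by 0.72 ± 0.10 on its brightest probe, while its other probe gave -0.05. With the sh225 hairpin 11 of the 22 rose and 1 fell, and TP53I3 rose by 0.57 on its brightest probe.

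Counts of signalling genes are to be read against 8.07% higher and 8.43% lower over all genes. Of 15 TGF-beta and epithelial-mesenchymal transition genes 5 rose and none fell. PMEPA1, a TGF-beta target that restrains SMAD signalling, had 8.81 and 8.89 with Dox against 7.93 and 7.97 without (0.90 ± 0.16, adjusted p = 0.00106), and it was the only one of the 5 called in all 4 fits without an array. SMAD6 and SMAD4 rose by 0.70 ± 0.18 and 0.66 ± 0.16, calls lost without sh120 replicate 2 with adjusted p of 0.102 and 0.0884. Of 16 Notch and Wnt genes 2 rose and none fell, with AXIN2, a feedback inhibitor and target of Wnt signalling, at 7.30 and 7.35 with Dox against 6.22 and 6.57 without (0.93 ± 0.16, adjusted p = 0.00112). It rose by 1.03 in the sh225 line and was not called in Ctrl (0.28).

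Immediate early genes, which growth factors and stress switch on within minutes, gave 6 rises and 4 falls of 29, against 8.07% and 8.43% over all genes. SPRY2, a feedback inhibitor of receptor tyrosine kinases, was at least 1.90-fold higher with Dox and undetected without it. CCN1, a matricellular protein, had 9.18 and 9.56 with Dox against 8.51 and 8.44 without (0.89 ± 0.15), and DUSP1, a MAP kinase phosphatase, rose by 0.85 ± 0.13. IER5 fell by 0.65 ± 0.11, and DUSP4, a further MAP kinase phosphatase, was undetected with Dox and at least 1.23-fold lower. In the Ctrl line CCN1 rose by 1.06, and DUSP4 was undetected with Dox there too, at least 1.28-fold lower. SPRY2, DUSP1 and IER5 were not called in Ctrl.

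Peptide hormone receptors and cyclic AMP pathway genes gave 4 rises and 2 falls of 14, against 8.07% and 8.43% over all genes. GCGR and GALR2 are described above. CALCR, the calcitonin receptor, had 7.68 and 7.87 with Dox against 6.54 and 6.71 without (1.15 ± 0.17, adjusted p = 0.000194), and it rose by 1.13 in sh225. RAMP1, a partner protein of the calcitonin receptor family, was at least 1.79-fold higher with Dox and undetected without it. ADM, which encodes adrenomedullin, a peptide ligand of that receptor family and a hypoxia target, had 10.52 and 10.41 with Dox against 9.16 and 9.21 without (1.28 ± 0.10, adjusted p = 1.51e-07). ADM rose by 1.19 in Ctrl and by 1.69 in sh225. The falls were in CREB1, the cyclic AMP response factor, by 0.60 ± 0.14 and ADCY6, an adenylyl cyclase, by 0.59 ± 0.14. Both calls were lost in 2 of the 4 fits without an array, with highest adjusted p of 0.0769 for CREB1 without sh120_Dox replicate 2 and 0.181 for ADCY6 without sh120 replicate 1.

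Luminal and hormone receptor genes gave 6 rises and 2 falls of 25, against 8.07% and 8.43% over all genes. ELF5, a factor of luminal progenitors and milk secretion, had 11.37 and 11.42 with Dox against 10.87 and 10.90 without (0.52 ± 0.10, adjusted p = 0.00181). FOXA1, a pioneer factor for the oestrogen receptor, had 12.92 and 13.09 with Dox against 12.55 and 12.61 without (0.42 ± 0.09, adjusted p = 0.00334, and 0.0521 without sh120_Dox replicate 2). PGR, the progesterone receptor, rose by 0.40 ± 0.12 (adjusted p = 0.0363, and 0.313 without sh120_Dox replicate 2). ERBB3, a receptor tyrosine kinase, rose by 0.59 ± 0.16 on its brightest probe, while its other probes gave -0.49 and -0.16. ESR1, the oestrogen receptor, and GATA3 were not called, with differences of -0.34 ± 0.16 and 0.12 ± 0.13. ELF5 was called higher in the Ctrl line too, by 0.38, and fell by 1.17 in sh225. FOXA1, PGR and ERBB3 were not called in Ctrl.

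Hormone target genes did not move as a group, and their counts are to be read against 8.07% higher and 8.43% lower over all genes. Oestrogen-induced genes gave 3 rises and 4 falls of 30. STC2, stanniocalcin 2, had 13.61 and 13.65 with Dox against 12.76 and 12.71 without (0.89 ± 0.09, adjusted p = 3.35e-06), and HSPB8, a small heat shock protein, rose by 0.94 ± 0.15. CTSD, cathepsin D, had 10.29 and 10.49 with Dox against 11.12 and 11.18 without and fell by 0.76 ± 0.11 (adjusted p = 0.000197). All 3 were called the same way in the Ctrl and sh225 lines. TFF1, a trefoil peptide, was undetected with Dox and at least 1.09-fold lower (adjusted p = 0.0104, and 0.103 without sh120_Dox replicate 1). Progestin and glucocorticoid induced genes gave 3 rises and 2 falls of 18, with STAT5A, a signal transducer of prolactin, undetected with Dox and at least 1.62-fold lower, and CEBPD, an acute phase transcription factor, lower by 0.85 ± 0.14.

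Steroid-metabolising and NRF2 target genes, which defend against oxidants and conjugate drugs, gave 10 falls (8.43% of all genes) and 2 rises of 16, with a median of -0.41. The Ctrl line had 8 falls and 1 rise, with a median of -0.41 as well. Besides AKR1C2, NQO1, a quinone reductase, had 12.16 and 12.23 with Dox against 12.78 and 12.89 without (fell by 0.64 ± 0.09, adjusted p = 9.43e-05). GCLM, of glutathione synthesis, fell by 0.72 ± 0.14, and SRXN1, which repairs peroxiredoxins, by 0.67 ± 0.13. Leaving out sh120_Dox replicate 1 gave 7 falls and its replicate 2 gave 5, and leaving out sh120 replicate 1 gave 6 and its replicate 2 gave 4. HSD17B1, which makes oestradiol from oestrone, had 9.48 and 8.99 with Dox against 8.28 and 8.23 without (0.98 ± 0.19, adjusted p = 0.00245, and 0.0502 without sh120_Dox replicate 1).

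Metabolic, stress and ribosomal lists held rises and falls side by side, to be read against 8.07% higher and 8.43% lower over all genes. Hypoxia and glycolysis genes gave 4 rises, ADM among them, and 5 falls of 33. The glycolytic enzymes GPI and PFKL fell, GPI with 9.02 and 9.08 with Dox against 9.84 and 9.81 without (by 0.78 ± 0.14) and PFKL by 0.59 ± 0.11. Mitochondrial ribosomal protein genes gave 7 falls and 2 rises of 73, respiratory chain genes 5 falls and 2 rises of 65 and cytosolic ribosomal protein genes 2 falls and 2 rises of 67, shares at or below those over all genes except for the mitochondrial ribosomal falls. MRPS15, a small subunit protein, fell by 0.56 ± 0.10. Sterol and fatty acid synthesis genes gave 1 rise of 27, ACSS2, which makes acetyl-CoA from acetate, at 10.34 and 10.35 with Dox against 9.80 and 9.81 without (0.54 ± 0.12, adjusted p = 0.00679, and 0.0502 without sh120 replicate 1). In the sh225 line 17 of these 27 fell, and for 14 the sh120 change was higher than the sh225 change. Heat shock genes gave 4 rises and 1 fall of 23, with HSPH1, a nucleotide exchange factor of HSP70, higher by 0.65 ± 0.14. Genes of ATF4 and the unfolded protein response gave 4 rises and 6 falls of 47, apoptosis genes 2 and 2 of 28, metallothioneins 3 and 1 of 8, aryl hydrocarbon receptor genes 2 and 1 of 8, and lysosome and autophagy genes 4 and 4 of 32.

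Core histone genes gave 4 rises and 3 falls of 26, against 8.07% and 8.43% over all genes, none of them called in all 4 fits that left out an array, and in the Ctrl line 3 rose and none fell. Genes for silencing factors and HMG proteins, which compete with H1 for nucleosomes, gave 2 falls and no rise of 22. HMGN2, which binds the nucleosome core, had 10.85 and 10.68 with Dox against 11.25 and 11.43 without (fell by 0.58 ± 0.11, adjusted p = 0.00186). HMGA1, which binds AT-rich DNA, fell by 0.78 ± 0.18 (adjusted p = 0.00786, and 0.0719 without sh120 replicate 1). Germline genes gave 4 falls and no rise of 10, with 1 of the 4 called in all 4 fits without an array. Among them was TDRD1, a tudor protein of the piRNA pathway, with 8.23 and 8.32 with Dox against 9.07 and 9.02 without (fell by 0.77 ± 0.15, adjusted p = 0.00192).

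Few listed markers of other cells could be tested, so each call is a large share beside the 8.07% higher over all genes. Of 5 fibroblast markers 1 rose, S100A4, which belongs to the S100 list too. Of 4 basal and myoepithelial markers 1 rose, ACTA2, and of 3 endothelial markers none was called. Of 2 leukocyte markers 1 was called, CD68, a lysosomal protein of macrophages that other cells also make, but the identity of its probe is uncertain and the call was lost in each fit without an array. Of 8 keratin genes 1 was called, KRT80, at 1.03 ± 0.11, again with a probe of uncertain identity, since the authors' series matrix gives 0.15.

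Compared with the random hairpin, the effect of Dox in the sh120 line differed for 41 genes (0.425%), 34 higher (0.352%) and 7 lower (0.0725%), and 1280 differences had an unadjusted p under 0.05. The count depends on single arrays. Leaving out sh120_Dox replicate 1 gave 22 and its replicate 2 gave 4, and leaving out sh120 replicate 1 gave 16 and its replicate 2 gave 7. The same for Ctrl_Dox gave 9 and 26, and for Ctrl 6 and 18. GCGR (adjusted p = 4.23e-06), FGL1, FAM149A and GALR2 were undetected on all Ctrl arrays and without Dox in sh120, so their differences have no measured size, and the bounds given above for sh120 stand for them. Within the hairpin lines they met the filter on detection only through the sh120_Dox arrays, where they are high. Their p-values and their calls on leaving out an array are therefore not separate support for a difference. BRINP1 was at least 3.06-fold higher with Dox in sh120 and at least 1.22-fold higher in Ctrl, again from undetected levels without Dox. CDC20B, detected in all 4 groups, differed by 1.53 ± 0.25. The differences of GCGR, FGL1 and FAM149A were called in all 8 fits that left out an array, that of BRINP1 in 7 (adjusted p = 0.0512 without sh120_Dox replicate 2), that of CDC20B in 4 and that of GALR2 in 1. WTAP, a subunit of the RNA methyltransferase complex that makes m6A, had 9.16 and 9.43 with Dox against 8.70 and 8.48 without in sh120, a rise of 0.71, and fell by 0.67 in Ctrl (difference 1.38 ± 0.24, called in 4 of the 8 fits). DRC10, of the nexin-dynein regulatory complex of motile cilia, had 6.86 and 6.74 with Dox against 6.08 and 5.92 without, a rise of 0.80. Its difference from Ctrl, where it was undetected with Dox, has no measured size and was called in 3 of the 8.

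The lower differences were smaller. RBSN, an endosomal protein also called rabenosyn-5, had 9.38 and 9.43 with Dox against 10.38 and 10.54 without in sh120, a fall of 1.05 ± 0.10, with a change of 0.02 in Ctrl and a rise of 0.46 in sh225. Its difference from Ctrl was -1.07 ± 0.15 (adjusted p = 0.00186), called in all 8 fits without an array. PLCXD1, a phospholipase C domain protein, had 7.89 and 8.15 with Dox against 8.89 and 8.91 without, and its difference from Ctrl was -1.17 ± 0.22 (adjusted p = 0.0192, called in 2 of the 8). EPN2, an adaptor of clathrin-mediated endocytosis, had 7.39 and 7.41 with Dox against 8.33 and 8.61 without, and its difference from Ctrl was -0.95 ± 0.19 (adjusted p = 0.0357, called in 1 of the 8). Compared with the sh225 line the effect differed for 1347 genes (14.0%), 808 higher (8.37%) and 539 lower (5.58%). S100A8, undetected with Dox in sh120, rose by 2.62 in the sh225 line, so that its difference was -3.29 or lower.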

How the data were processed

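RNA of 16 samples was read on Illumina bead arrays, and the 4 arrays of the sh120 line carry the comparison. The table the authors deposited holds a raw intensity and a detection p-value for each of 24530 probes, with GenomeStudio 1.6.0 among the tools in the submitters' processing notes. The neqc function of limma 3.58.1 (R 4.3.3) removed background by normexp, inferring the negative controls from detection p-values, added an offset of 16, quantile-normalised the arrays and took log2. The filter kept 11258 probes with a detection p under 0.01 on 2 or more of the 16 arrays, and the probe of highest mean stood for each symbol, which left 9654 items, 9172 of them named genes. A limma model with a mean per group over all 16 arrays (8 residual degrees of freedom, eBayes with a trend) gave each Dox effect and the differences between lines, with Benjamini-Hochberg adjustment over all items and a threshold of 0.05. The fitting script was checked on simulated data. Where no array of a group detected a gene, the change is given as "at least N-fold", against the higher, on each array, of its own signal and the lowest detected signal. Gene names came from the platform annotation: 23266 probes had 1 symbol and 1264 had none. The series matrix, which the authors deposited on a linear intensity scale, served as an alternative. For 471 tested items its log2 value lay more than 0.3 from the running median of probes of like scanner rank (median over arrays). This leaves the identity of those probes uncertain.

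The named genes are the 15 largest rises and falls whose arrays did not overlap, the largest differences from the Ctrl and sh225 lines, up to 5 called genes per list and direction, and all H1 genes. The gene lists and this rule were chosen with earlier results of these data known. Promoter sequences are from RefSeq (GRCh38.p14). Same-numbered arrays of the sh120 and sh120_Dox groups shared only a number: their deviations from the group means correlated at r = 0.03.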

Additional observations from a re-analysis of the deposited data

Results flagged for a closer look

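The effect of Dox in the sh120 line differed from that in the Ctrl line, by the interaction test over all genes, for 19 of the named genes. The differences in log2 fold change, sh120 minus Ctrl, were positive for GCGR (3.14), FGL1 (2.50), FAM149A (1.96), BRINP1 (1.55), CDC20B (1.53), GALR2 (1.46), WTAP (1.38), DRC10 (1.35), FOXN4 (1.29), HOATZ (1.20), ROPN1L (1.18), CAPSL (1.12) and AKR1C2 (0.87). AKR1C2 was undetected with Dox in both lines, so its value compares no measured falls, and it was called in none of the 8 fits that left out an array (highest adjusted p = 0.163). GCGR, FGL1, FAM149A, BRINP1 and GALR2 were undetected without Dox in both lines, and DRC10 was undetected with Dox in Ctrl. For these the values are differences of normalised signal and not measured sizes. Within the hairpin lines GCGR, FGL1, FAM149A and GALR2 met the filter on detection only through the sh120_Dox arrays, so their positive sign is not separate support. The differences were negative for PLCXD1 (-1.17), RBSN (-1.07), TROAP (-0.99), TACC3 (-0.96), EPN2 (-0.95) and UBE2C (-0.78).

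A further 33 differences, sh120 minus sh225, passed the test in named genes that were called in opposite directions in these lines. Genes of the multiciliated cell program rose with Dox in sh120 and fell in sh225: HOATZ (4.22), FOXN4 (4.00), CDC20B (3.95), CAPSL (3.73), ROPN1L (3.69), RSPH4A (3.36), TEKT1 (3.33), DNAI1 (2.49), DNAAF1 (2.28), CCNO (2.03) and DRC10 (2.02). The others of that direction were MYH11 (3.50), S100A4 (2.44), PLK4 (2.19), RAMP1 (1.90) and ELF5 (1.69). Interferon-stimulated genes fell with Dox in sh120 and rose in sh225: IFI27 (-5.99), IFIT1 (-4.96), MX1 (-3.55), IRF9 (-2.94) and IFITM3 (-2.94). Defence and NF-kappaB genes followed with S100A8 (-4.22), SLPI (-2.62), S100P (-2.48), TNFAIP2 (-1.63), CEBPD (-1.56), S100A9 (-1.35) and SOD2 (-1.11). The remaining genes were RBSN (-1.51), TFF1 (-1.47), GDF15 (-1.40), TP53I3 (-1.29, on its brightest probe) and DUSP4 (-1.18). Where a group was undetected the value again has no exact size. Undetected with Dox in sh225 were FOXN4 (the log2 changes differed by at least 3.82), CAPSL (3.44), TEKT1 (2.95), RSPH4A (2.25), DNAI1 (1.92), DRC10 (1.34) and RAMP1 (0.87, also undetected without Dox in sh120). MYH11 was undetected with Dox in sh225 as well, and no bound is given for its difference. Undetected with Dox in sh120 were IFI27 (-4.96 or lower), S100A8 (-3.29 or lower), IFITM3 (-2.18 or lower), DUSP4 (-0.75 or lower) and TFF1 (-0.72 or lower). The difference also passed the test for 36 more named genes that were not called in opposite directions.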

How the results depend on the processing

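The number of genes called with Dox in the sh120 line ran from 1173 (no filter on detection) to 1798 (only the 4 arrays in the fit), and was 654 to 826 on leaving out an array. Against 41 genes, the difference from Ctrl gave 65 with the series matrix, 17 with probes detected on all 16 arrays, 24 with no filter on detection, 16 with the replicate block, and 4 to 26 on leaving out an array; the share called higher was 82.9%, but 64.7% with probes detected on all 16 arrays and 62.2% with only the groups of the contrast. The count of differences from sh225 (1347) stayed between 953 and 1384. With the replicate block the sh120 count was 1434. Crossing the numbers in the Ctrl line, added after seeing the data because its same-numbered arrays correlated at r = -0.16, gave 40 differences. Of the 111 named genes called in sh120, 104 kept direction and call with the series matrix, 107 without the filter, 110 with the replicate block and 101 or 102 on leaving out each array; all 72 that could be tested with probes detected on all 16 arrays kept theirs. The sign turned for 3 results: the difference of CAPSL from sh225 (-0.062, series matrix), CD68 (-0.0272, series matrix) and ERBB3 (-0.0204, mean of its probes). For CAPSL and CD68 the scanner intensities and the series matrix disagree under the same identifier. For ERBB3 the other probes gave -0.49 and -0.16. The slide as a block was not run, since no slide is named. With 2 arrays per group, small changes and probes near background are measured least well.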
